A study of Mus musculus with 677 samples.

Results

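The genes described here are 8 genes of mitochondrial fatty acid oxidation and of its control by the nuclear receptor PPARA: Ppara, Creb3l3, Cpt1a, Cpt2, Acadm, Acadl, Hadha and Hadhb. They were taken by name from a table of 23420 genes, and all 8 were found. The table holds 677 single epithelial cells of the mouse intestine, each profiled by SMART-Seq2, which amplifies full-length cDNA and gives 1 library per cell. Atg16l2-/- mice (KO), which lack a homologue of the autophagy gene Atg16l1, gave 50.5% of the cells and wild-type mice (WT) 49.5%, all on the C57BL/6 background. The labels used here give no age. Each cell name carries a run (1 or 2), a code M1 or M2 within the genotype, and 1 of 9 cell types named by the authors. The code was read as an animal, the same in both runs, which the labels do not state. Values are TPM, a length-corrected share of the transcripts of a cell, so levels can be compared between genes but the sequencing depth is unknown.

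Fatty acids are burned in mitochondria after activation to acyl-CoA and passage through the carnitine shuttle, in which CPT1A loads the acyl group onto carnitine and CPT2 unloads it inside. Acyl-CoA dehydrogenases such as ACADM and ACADL then start each round of beta-oxidation, and the trifunctional protein, made of HADHA and HADHB subunits, carries out the later steps for long chains. PPARA, a receptor for fatty acids that acts with RXR, switches on most of these genes in mouse liver, and CREB3L3 is a membrane-bound transcription factor of liver and small intestine that PPARA is known to induce. In the mouse intestine the pathway is known both from absorptive enterocytes, which handle dietary fat, and from crypt stem cells, where Cpt1a takes part in the response to fasting.

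For each animal and cell type the TPM values of its cells were averaged. In 6 types every animal had at least 10 cells, and these were tested. Stem had 96 cells, Enterocyte 58, its late progenitor Enterocyte.prog.late 75 and Goblet 70, while TA (transit amplifying) had 37 to 48 cells per animal and Enterocyte.prog.early 31 to 42. The names of Enterocyte, Stem and Goblet cells matched their markers. Summed over 8 enterocyte markers the level was 8107 TPM in Enterocyte cells and 778 TPM in Stem cells, 6 stem cell markers summed to 91.97 TPM in Enterocyte and 17153 TPM in Stem cells, and 7 goblet markers summed to 120577 TPM in Goblet cells. Stem and TA cells were less apart, as the stem cell markers summed to 8717 TPM in TA cells. The 6 TA markers summed to 2701 TPM in TA, 1441 TPM in Stem and 1589 TPM in Enterocyte.prog.early cells. Stem cell markers reached 355.4 TPM in the Enterocyte cells of KO M1, against 11.9 to 36.1 TPM in the other animals. Goblet markers also reached 2244 TPM in the Enterocyte cells of KO M2, against 41.4 to 58.9 TPM in the other animals, and Paneth markers reached 3910 TPM in the Enterocyte cells of KO M1, against 100 to 552 TPM; the part of any of these in the results was not tested. Median genes above 0 TPM ran from 5688 to 6713 over the 6 types. The ribosomal RNA gene Rn45s averaged 46916 to 74163 TPM in 3 of the 4 animals in run 1, but 212094 TPM in KO M2, where it lay at the level of run 2 (166305 to 197764 TPM). Atg16l2 was above 0 TPM in 0 KO cells and in 6 to 12 cells of each WT animal and run.

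The comparison of Enterocyte with Stem cells asks how far mature absorptive cells and crypt stem cells differ in these transcripts. Of the 8 genes, 6 were higher in Enterocyte cells and 0 were lower, while Cpt1a and Acadl did not pass the test. Creb3l3 differed by far more than the others, Cpt2, Ppara and Acadm stood more than 2-fold higher, and the trifunctional protein genes differed by less. The test was limma on log2(TPM + 1) of the 24 profiles (6 types in 4 animals), with the animal as a block and Benjamini-Hochberg adjustment over 6714 genes at 0.05. All differences and standard errors below are on that log2 scale. Over all genes tested, 24.4% were called higher and 35.3% lower in Enterocyte cells. The median difference was 0.82 over the 8 genes and -0.24 over all genes. The authors may have drawn their cell types from these same profiles, so a p-value between types is no independent evidence for a difference. The p-value sets a difference against the spread of the 24 profiles that is left after cell type and animal are fitted. Scaling moved the weaker calls. With quantile normalization, or with TPM rescaled without the 100 highest genes or without ribosomal protein genes, the median of all genes shifted to -0.06, -0.51 and -0.44, and 4 of the 8 genes were called under each. Higher genes were 40.9% of all calls as reported, 28.8% without the 100 highest genes and 61.1% with log values averaged over cells.

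Ppara encodes the receptor itself. It averaged 24.2 and 16.96 TPM in Enterocyte cells of KO M1 and KO M2 and 16.4 and 19.7 TPM in those of WT M1 and WT M2, against 9.06, 7.78, 4.03 and 8.30 TPM in Stem cells of the same animals. Every Enterocyte value lay above every Stem value, a difference of 1.33 (SE 0.32, limma adjusted p = 0.00113), higher in 4 of 4 animals. Its highest mean was in the late progenitors, but Enterocyte against Enterocyte.prog.late cells was not called (-0.43, SE 0.32, limma adjusted p = 0.36). Ppara stood at 7.29 ± 2.24 TPM in Stem, 6.73 ± 1.55 in TA, 14.3 ± 1.62 in Enterocyte.prog.early, 26.2 ± 2.47 in Enterocyte.prog.late and 19.3 ± 3.58 TPM in Enterocyte cells (SD, n = 4 animals), with 3.60 ± 1.88 TPM in Goblet cells. The animals of Enterocyte.prog.late and Enterocyte overlapped, as did those of Stem, TA and Goblet, whereas Enterocyte.prog.early lay apart from both neighbours. Ppara was above 0 TPM in 89.7% of 58 Enterocyte cells (exact 95% binomial interval 78.8 to 96.1%) and in 53.1% of 96 Stem cells (42.7 to 63.4%). Such intervals cover counting error only. In run 2 cells alone the difference was 1.23 and the call was lost (adjusted p = 0.0546).

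Creb3l3 was almost confined to the end of the enterocyte lineage. Mean levels were 199.8 and 221.1 TPM in Enterocyte cells of KO M1 and KO M2 and 156.4 and 183.3 TPM in those of WT M1 and WT M2, against 1.28, 7.22, 5.46 and 3.83 TPM in Stem cells. The 2 sets of values lay far apart, with a difference of 5.27 (SE 0.52, limma adjusted p = 1.66e-08). Along the lineage Creb3l3 stood at 4.45 ± 2.53 TPM in Stem, 2.13 ± 0.65 in TA, 4.70 ± 3.71 in Enterocyte.prog.early, 57.3 ± 37.3 in Enterocyte.prog.late and 190.1 ± 27.3 TPM in Enterocyte cells (SD, n = 4 animals). Levels up to Enterocyte.prog.early and in Goblet cells (1.49 ± 1.19 TPM) overlapped, and each later step lay apart. The share of cells above 0 TPM followed the same steps, at 12.5% of Stem (exact 95% interval 6.63 to 20.8%), 9.14% of TA, 13.4% of Enterocyte.prog.early, 52% of Enterocyte.prog.late and 89.7% of Enterocyte cells (78.8 to 96.1%). It was 5.71% in Goblet cells. Within Enterocyte cells the levels ranged from 0 to 620 TPM with a median of 142.5 TPM.

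The RefSeq promoter windows, 250 bases before to 50 after a start in build GRCm38.p6, were searched for the element PPARA and RXR are known to bind, AGGTCANAGGTCA, on both strands with up to 2 mismatches in the 12 fixed bases. Of 32851 windows of all genes 3.86% held a match, and of the 9 windows of the 8 genes 1 did, a window of Creb3l3. It is shown because Creb3l3 differed most between the types, at chr10:81092542-81092841 on the minus strand, with the match, at bases 42 to 54 of the window and with 2 mismatches, in capitals.
Creb3l3: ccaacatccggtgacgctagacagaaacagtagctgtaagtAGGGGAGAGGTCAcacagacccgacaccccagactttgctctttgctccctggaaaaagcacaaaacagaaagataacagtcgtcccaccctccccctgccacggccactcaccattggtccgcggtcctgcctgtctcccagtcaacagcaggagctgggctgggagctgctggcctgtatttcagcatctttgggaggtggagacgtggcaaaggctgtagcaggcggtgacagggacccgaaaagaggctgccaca
Another Creb3l3 window and those of the other 7 genes held no match, which says only that these letters are not in these windows. Of the 85 wider pathway genes described further on, 66 had a RefSeq window, and 9 of their 82 windows held a match (10.98%). A match of letters is a description and not a bound site.

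Cpt1a and Cpt2 encode the outer and inner enzymes of the carnitine shuttle. Both stood higher in the progenitors than in TA cells, but they parted in Enterocyte cells. Their Pearson r across the 24 profiles was 0.57. Cpt1a averaged 59.8 and 79.9 TPM in Enterocyte cells of KO M1 and KO M2 and 40.4 and 57.8 TPM in those of WT M1 and WT M2, against 69.8, 47.3, 45.7 and 54.7 TPM in Stem cells. The values overlapped, and the difference of 0.11 (SE 0.21, limma adjusted p = 0.676) had a 95% interval of -0.33 to 0.54. Its sign was positive in 2 of 4 animals, and it was -0.11 without KO M2. The peak of Cpt1a lay in the progenitors, at 88.4 ± 8.81 TPM in Enterocyte.prog.early and 92.8 ± 6.81 TPM in Enterocyte.prog.late (SD, n = 4 animals), above 54.4 ± 10.99 TPM in Stem, 59.8 ± 5.38 in TA and 59.5 ± 16.2 TPM in Enterocyte cells. Values of the progenitors lay apart from those of TA cells, while Enterocyte cells of KO M2 reached the lowest progenitor value (79.4 TPM), and those of TA, Enterocyte, Stem and Goblet cells (48.7 ± 14.9 TPM) overlapped.

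Cpt2 climbed along the lineage. It averaged 191 and 143.7 TPM in Enterocyte cells of KO M1 and KO M2 and 116.9 and 218.7 TPM in those of WT M1 and WT M2, against 74.7, 74.2, 50.2 and 48.2 TPM in Stem cells. No Enterocyte animal reached down to a Stem value, and the difference was 1.41 (SE 0.16, limma adjusted p = 1.98e-07), higher in 4 of 4 animals. Levels stood at 61.8 ± 14.6 TPM in Stem, 63.1 ± 6.83 in TA, 105.8 ± 9.68 in Enterocyte.prog.early, 160.6 ± 15.3 in Enterocyte.prog.late and 167.6 ± 45.8 TPM in Enterocyte cells (SD, n = 4 animals), with 44.7 ± 7.63 TPM in Goblet cells. The last 2 stages overlapped, and each progenitor stage lay apart from the stage before it. Cpt2 was above 0 TPM in 98.3% of Enterocyte cells (exact 95% interval 90.8 to 99.96%) and 71.9% of Stem cells (61.8 to 80.6%).

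**Figure D1:**
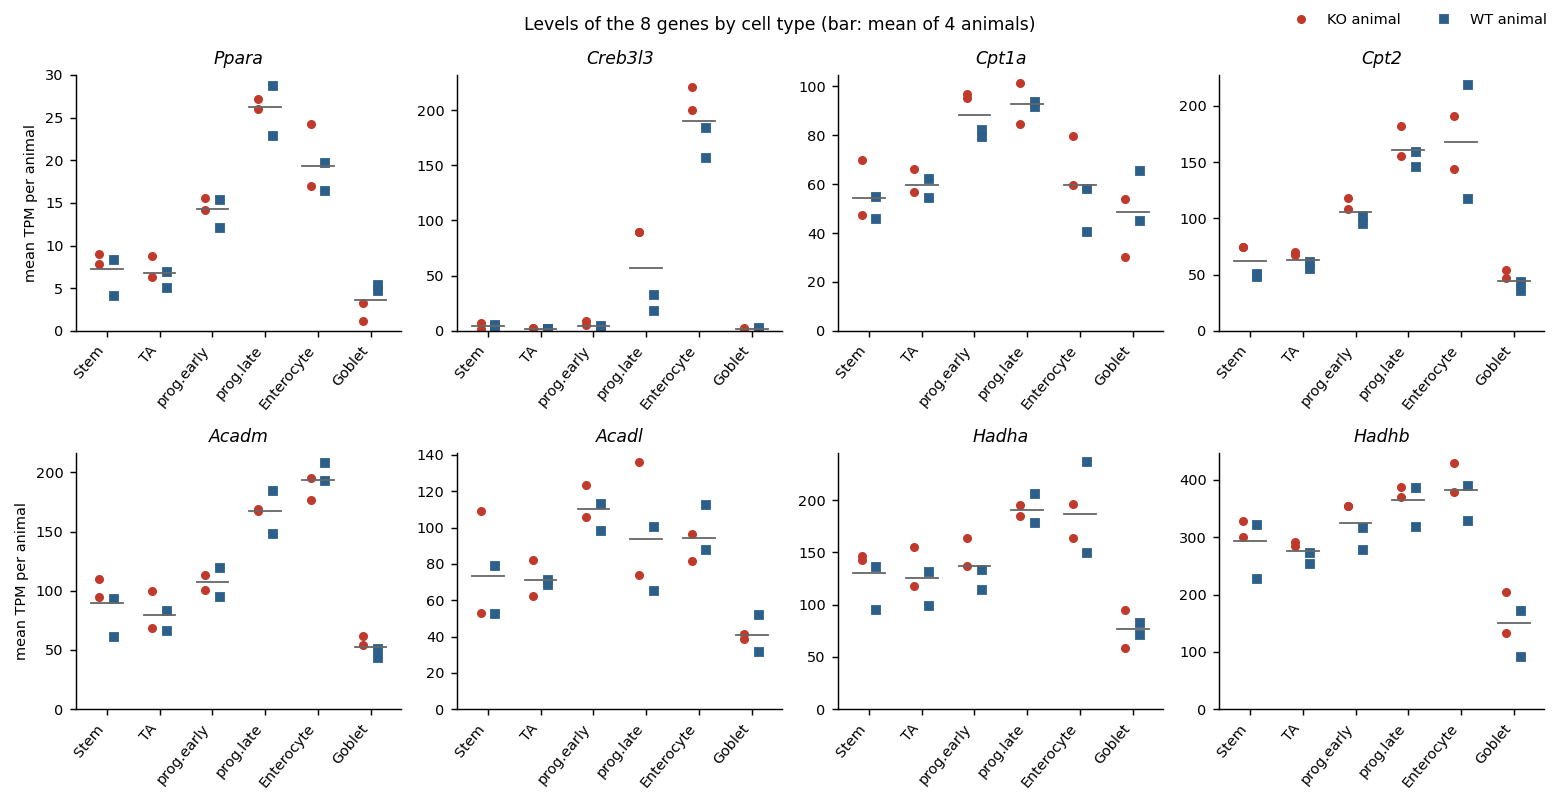
Mean TPM (y axis, from 0, its own scale in each panel) of the 8 genes in the 6 tested cell types (x axis), with a point for each KO animal and a square for each WT animal, and a bar at the mean of the 4 animals. Creb3l3 stays under 10 TPM until Enterocyte.prog.late, Cpt1a peaks in the 2 progenitor types, and Goblet cells hold the lowest mean of each gene.

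Acadm, which starts the oxidation of medium-chain acyl-CoA, had the least spread for its level among Enterocyte animals. Levels were 176.9 and 195.3 TPM in Enterocyte cells of KO M1 and KO M2 and 192.5 and 208.4 TPM in those of WT M1 and WT M2, against 94.6, 110.1, 92.9 and 61.03 TPM in Stem cells. All Enterocyte values exceeded all Stem values, with a difference of 1.13 (SE 0.16, limma adjusted p = 2.32e-06). The stages followed at 89.6 ± 20.6 TPM in Stem, 79.2 ± 15.7 in TA, 107.1 ± 11.4 in Enterocyte.prog.early, 167.4 ± 14.7 in Enterocyte.prog.late and 193.3 ± 12.9 TPM in Enterocyte cells (SD, n = 4 animals). The step between the progenitor types was the one at which neighbouring stages did not overlap. Of the 6 tested types Goblet cells had the lowest mean, 52.7 ± 7.75 TPM. The highest Goblet animal (62.2 TPM) still lay just above the lowest Stem animal (61.03 TPM).

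Acadl, the long-chain acyl-CoA dehydrogenase, did not pass the test between Enterocyte and Stem cells. It averaged 96.5 and 81.5 TPM in Enterocyte cells of KO M1 and KO M2 and 87.6 and 112.2 TPM in those of WT M1 and WT M2, against 109.3, 53.1, 52.1 and 78.8 TPM in Stem cells. The values overlapped because KO M1 Stem cells stood at 109.3 TPM, and the difference of 0.42 (SE 0.21, limma adjusted p = 0.0913) had a 95% interval of -0.02 to 0.85. Without KO M1 the difference was 0.62 and passed the test (adjusted p = 0.0241), as it did with log values averaged over cells (1.08, adjusted p = 0.00537). It was -0.41 in run 1 and 0.88 in run 2, so its sign was not the same in the 2 runs. The highest mean was in Enterocyte.prog.early (110.3 ± 10.8 TPM), whose animals lay above all those of TA (70.9 ± 8.18 TPM). Those of Stem and TA overlapped, as did those of the progenitor types and of Enterocyte.prog.late and Enterocyte, and Goblet animals (40.9 ± 8.32 TPM) lay below all others (SD, n = 4 animals).

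Hadha and Hadhb, the alpha and beta subunits of the trifunctional protein, were above 0 TPM in over 90% of the cells of each tested type. Hadha averaged 163.96 and 196.5 TPM in Enterocyte cells of KO M1 and KO M2 and 149.1 and 236.5 TPM in those of WT M1 and WT M2, against 146.4, 143.1, 95.2 and 136.2 TPM in Stem cells. Enterocyte was the higher type in every animal and every Enterocyte value topped every Stem value, with a difference of 0.51 (SE 0.15, limma adjusted p = 0.00451). Hadhb averaged 430 and 378.9 TPM in Enterocyte cells of KO M1 and KO M2 and 328.3 and 390.3 TPM in those of WT M1 and WT M2, against 328.3, 299.7, 227.7 and 320.8 TPM in Stem cells. Its values met at 328.3 TPM, where WT M1 Enterocyte and KO M1 Stem cells stood, and the difference was 0.38 (SE 0.13, limma adjusted p = 0.0144). Both calls were lost under quantile normalization (0.22 and 0.01), without the 100 highest genes (0.26 and 0.14) and in either run alone. The call for Hadha was also lost without WT M2 (0.42, adjusted p = 0.0546), and that for Hadhb without KO M1 (0.38, adjusted p = 0.0508), without WT M1 (0.34, adjusted p = 0.0513) and with no replicate block, that is, without the animal as a block (adjusted p = 0.067).

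Hadhb stood above Hadha in every animal of the 6 types. It averaged 2.10 ± 0.42 times Hadha in Enterocyte, 1.91 ± 0.14 in Enterocyte.prog.late, 2.39 ± 0.18 in Enterocyte.prog.early, 2.23 ± 0.31 in TA, 2.27 ± 0.13 in Stem and 1.99 ± 0.59 times in Goblet cells (SD, n = 4 animals). The ratios of the 2 progenitor types did not overlap. The lowest ratio of any animal and type was 1.12 in WT M1 Goblet cells. Across the 24 profiles their log2 levels had a Pearson r of 0.87, and across single cells a Spearman rho of 0.39 in Enterocyte, 0.36 in Goblet, 0.21 in TA, 0.21 in Enterocyte.prog.early, 0.11 in Enterocyte.prog.late and 0.095 in Stem cells. It was the highest of the 28 pairs of the 8 genes in Enterocyte and TA cells but not in the other 4 types. Genes in 1 library share its scaling, so these are descriptions without a p. The Hadhb promoter is shown because in RefSeq the 2 genes start less than 300 bases apart on opposite strands, and their windows share 76% of their bases. Of 27025 genes with a window, 11.9% overlap a window on the other strand, and of the 8 genes these 2 do. The Hadhb window, chr5:30155003-30155302 on the plus strand (GRCm38.p6), has the bases it shares with the Hadha window, chr5:30154931-30155230 on the minus strand, in capitals.
Hadhb: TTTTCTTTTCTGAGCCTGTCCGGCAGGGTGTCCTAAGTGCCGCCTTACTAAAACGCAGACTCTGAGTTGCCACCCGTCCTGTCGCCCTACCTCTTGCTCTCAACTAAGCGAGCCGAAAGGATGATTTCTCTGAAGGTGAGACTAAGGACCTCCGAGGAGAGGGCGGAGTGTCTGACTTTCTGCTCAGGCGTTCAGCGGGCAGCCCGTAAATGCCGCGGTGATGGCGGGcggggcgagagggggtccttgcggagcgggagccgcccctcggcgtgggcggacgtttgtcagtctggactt

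**Figure D2:**
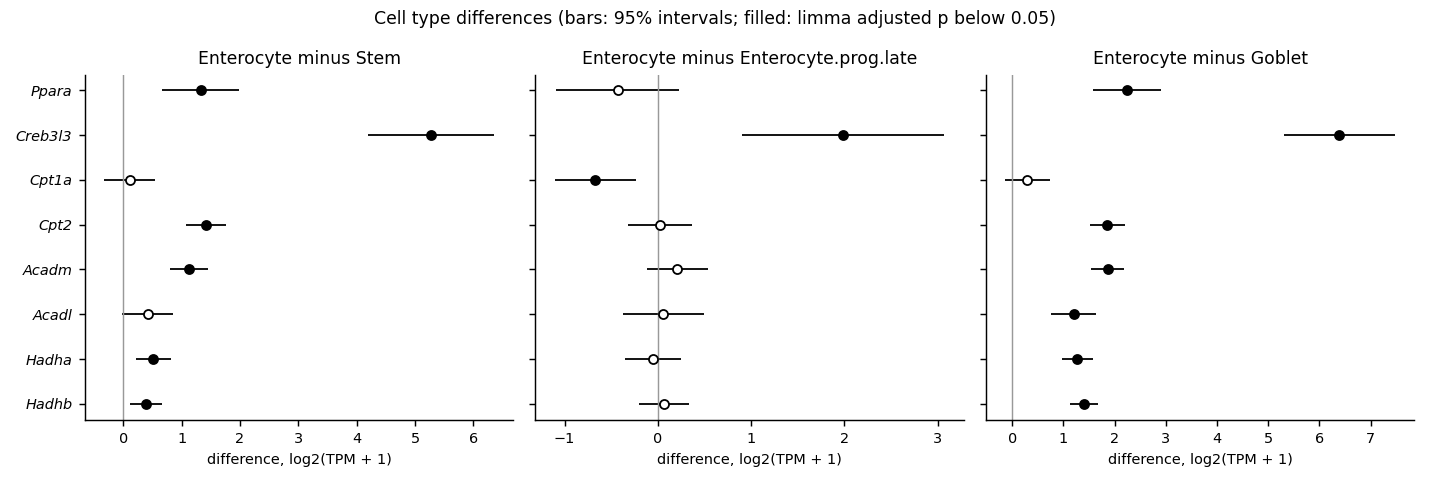
Difference on the log2(TPM + 1) scale (x axis) for each of the 8 genes (y axis), for Enterocyte minus Stem, Enterocyte minus Enterocyte.prog.late and Enterocyte minus Goblet, with 95% intervals as bars and filled points where the limma adjusted p was under 0.05. Of the 8 genes, 6, 2 and 7 are filled, and Cpt1a lies below 0 in the middle panel.

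Together the 6 enzyme genes, from Cpt1a to Hadhb, summed to 1083 ± 128.5 TPM in Enterocyte cells, 1071 ± 82.9 in Enterocyte.prog.late, 874 ± 82.3 in Enterocyte.prog.early, 674 ± 59.1 in TA and 704 ± 107.1 TPM in Stem cells (SD, n = 4 animals). That is 0.108% of all TPM in Enterocyte and 0.0704% in Stem cells. All 8 genes were above 0 TPM in the same cell in 34 of 58 Enterocyte cells (58.6%), 32 of 75 Enterocyte.prog.late cells (42.7%), 18 Enterocyte.prog.early cells (12.7%), 4 TA cells (2.29%) and 2 of 96 Stem cells (2.08%). Creb3l3 was the gene most often at 0 in each of these types but Enterocyte, where Cpt1a was (above 0 TPM in 49 of 58 cells, against 52 for Creb3l3).

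Other type comparisons place these differences in the lineage. TA cells, the dividing progeny of stem cells, were compared with Stem cells, where 5.72% of all genes were called higher and 0.923% lower. None of the 8 genes was called by limma (0 at an unadjusted p under 0.05), and their differences ran from -0.68 to 0.15. Enterocyte cells against Enterocyte.prog.late cells gave 5.38% of all genes higher and 16.3% lower. Creb3l3 was higher in Enterocyte cells (1.99, SE 0.52, limma adjusted p = 0.00827) and Cpt1a lower (-0.67, SE 0.21, limma adjusted p = 0.0239), each in the same direction in 4 of 4 animals. Acadm differed by 0.21 (SE 0.16, limma adjusted p = 0.37), and Cpt2, Acadl, Hadha and Hadhb differed by -0.05 to 0.06, with 95% intervals that reached from -0.38 to 0.49 at the widest. Neither call was firm. The Creb3l3 difference was 1.15 and 1.30 in KO M1 and KO M2, against 3.05 and 2.45 in WT M1 and WT M2. In KO animals alone neither Creb3l3 (1.23, limma adjusted p = 0.309) nor Cpt1a (-0.42, limma adjusted p = 0.513) was called. The same held in run 1 cells alone, for Creb3l3 (1.87, limma adjusted p = 0.165) and for Cpt1a (-0.66, limma adjusted p = 0.0974). Without WT M1 the adjusted p was 0.0682 for Creb3l3 (1.64) and 0.138 for Cpt1a (-0.50), and without WT M2 it was 0.119 for Cpt1a (-0.68).

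Enterocyte cells stood above Goblet cells, the mucus-secreting type, in 7 of the 8 genes, where 27% of all genes were called higher and 25.4% lower. Creb3l3 differed by 6.39 (SE 0.52, limma adjusted p = 7.86e-10), Ppara by 2.24 (SE 0.32), Acadm by 1.86 (SE 0.16), Cpt2 by 1.86 (SE 0.16), Hadhb by 1.40 (SE 0.13), Hadha by 1.27 (SE 0.15) and Acadl by 1.20 (SE 0.21), with adjusted p at most 4.69e-05. In run 1 cells alone Acadl differed by 0.41 and was not called (adjusted p = 0.275). Cpt1a differed by 0.30 (SE 0.21, limma adjusted p = 0.243). Without WT M1, whose Goblet cells had 65.6 TPM of Cpt1a, that difference was 0.62 and passed the test (adjusted p = 0.0247). In Goblet cells of KO M1 the Paneth markers summed to 88801 TPM, against 3688 to 21504 TPM in the other animals, and their part in these differences was not tested.

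Paneth (22 cells), Enteroendocrine (32) and Tuft cells (7) were too few in some animals for a test. Enteroendocrine cells had 230.7 and 184.2 TPM of Cpt2 in KO M1 and KO M2 and 187.8 and 127.95 TPM in WT M1 and WT M2, against 116.9 to 218.7 TPM over the animals of Enterocyte cells. Their Ppara was low, at 4.94 and 2.47 TPM in KO animals and 0.98 and 0 TPM in WT animals, and above 0 TPM in 6 of 32 cells. Paneth animals were widely apart. The 6 enzyme genes summed to 37.6 and 696 TPM in Paneth cells of KO M1 and KO M2 and to 230 and 24.7 TPM in those of WT M1 and WT M2, with 3 to 9 cells in each. In the 7 Tuft cells Creb3l3 was listed at 0 throughout, so that its share of cells could be as high as 42.9%, and Ppara was above 0 TPM in 1 cell.

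Across the 24 profiles the closest pairs among the 8 genes were Cpt2 with Acadm (Pearson r 0.93) and Ppara with Cpt2 (r 0.89), and the loosest was Creb3l3 with Cpt1a (r 0.22). These profiles share cell types and libraries, so r is given without a p. Among all other genes tested, Ppara was most like Zdhhc7, Akr1c19 and Gcnt4 (r 0.95 to 0.92), and Creb3l3 most like Anpep, a brush border aminopeptidase, Bco2, a carotenoid-cleaving enzyme of mitochondria, and Entpd5 (r 0.95 to 0.93). Cpt1a had the weakest matches, Frrs1, Pdhb, a subunit of pyruvate dehydrogenase, and Psap (r 0.83 to 0.80). Those of Cpt2 were Bpnt1, Ugt2a3 and Abat (r 0.97 to 0.95), and those of Acadm were Marc2, Btnl1 and Maob (r 0.95 to 0.94). For Acadl they were Adk, Slc1a1 and Pgam1 (r 0.85 to 0.84), for Hadha Lrp1, Sod2 and Slc6a4 (r 0.91 to 0.90), and for Hadhb Vipr1, Ces2g and Acads, the short-chain acyl-CoA dehydrogenase (r 0.94 to 0.93).

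The wider pathway was described with 85 further genes, of which 57 passed the filter on low values. In Enterocyte against Stem cells 34 of the 57 were higher, 9 were lower and 14 were not called, beside 24.4% higher and 35.3% lower over all genes. The median difference was 0.70 against -0.24 over all genes. All values in this and the next paragraph are from the same limma fit. Peroxisomal beta-oxidation, which shortens very long chains, had 8 of 10 genes higher and 1 lower. The peroxisomal fatty acid transporter gene Abcd3 was higher by 2.18, and Pecr, a peroxisomal enoyl-CoA reductase, was lower (-1.03). Pecr was not called in run 1 cells alone (-1.74, limma adjusted p = 0.0729) or in run 2 cells alone (-0.85, limma adjusted p = 0.181). Of the activation and carnitine shuttle genes 5 of 7 were higher, led by the acyl-CoA synthetase gene Acsl5 (690 ± 25.9 TPM in Enterocyte and 79.3 ± 5.42 TPM in Stem cells, SD, n = 4 animals, difference 3.11) and the acyltransferase genes Crat (2.90) and Crot (1.30). Crot was not called in run 2 cells alone (1.47, limma adjusted p = 0.0869) or in WT animals alone (0.93, limma adjusted p = 0.0811). The synthetase genes Acsl3 (-2.44) and Acsl1 (-0.70) were lower, and Acsl1 was not called without KO M2 (-0.60, adjusted p = 0.0815) or without WT M1 (-0.66, adjusted p = 0.0649). Mitochondrial beta-oxidation had 8 of 14 genes higher and 0 lower, with Acad11 (3.23), Hadh (1.19) and the electron transfer gene Etfdh (1.07) in front.

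Of 5 ketone body genes tested 2 were higher, 1 was lower and 2 were not called. Among the higher genes, Acat1, a thiolase gene of mitochondria, was higher by 0.47, and it was not called without KO M2 (0.37, adjusted p = 0.11) or without WT M2 (0.36, adjusted p = 0.0696). Of 10 other PPARA targets 6 were higher and 3 lower. Fabp1, the liver-type fatty acid binding protein, reached 5069 ± 2174 TPM in Enterocyte cells and 50.2 ± 29.1 TPM in Stem cells (6.72), and the transporter gene Slc27a4 (4.67) and the thioesterase gene Acot4 (3.22) were higher too. Acot1 stood at 2.20 ± 2.84 TPM in Enterocyte and 100.8 ± 15.4 TPM in Stem cells (-5.38), although reads could be split between Acot1 and its near copy Acot2. Hilpda (-3.49), a lipid droplet protein gene, and Slc27a2 (-0.58) were also lower, the last not called without WT M1 (-0.45, adjusted p = 0.108) or WT M2 (-0.40, adjusted p = 0.118). All 3 CREB3L3 targets that passed the filter were higher, namely the apolipoprotein genes Apoa1 (6.97), Apoa4 (4.45) and Apoc2 (3.88). Among 7 regulators 2 were higher, Hnf4g (3.54) and the estrogen-related receptor gene Esrra (1.42), and 2 were lower, Rxrb (-1.86), which encodes a partner of PPARA, and Hnf4a (-1.37). Esrra was not called in run 2 cells alone (0.95, limma adjusted p = 0.138) or in KO animals alone (0.51, limma adjusted p = 0.374). Mlycd, the gene of malonyl-CoA decarboxylase, did not pass the test (0.64, adjusted p = 0.147). Over the 57 genes 2 were higher and 1 lower in TA against Stem cells, beside 5.72% and 0.923% of all genes. In Enterocyte against Enterocyte.prog.late cells 17 were higher and 3 lower, beside 5.38% and 16.3% of all genes. In Enterocyte against Goblet cells 45 were higher and 4 lower, beside 27% and 25.4% of all genes.

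**Figure D3:**
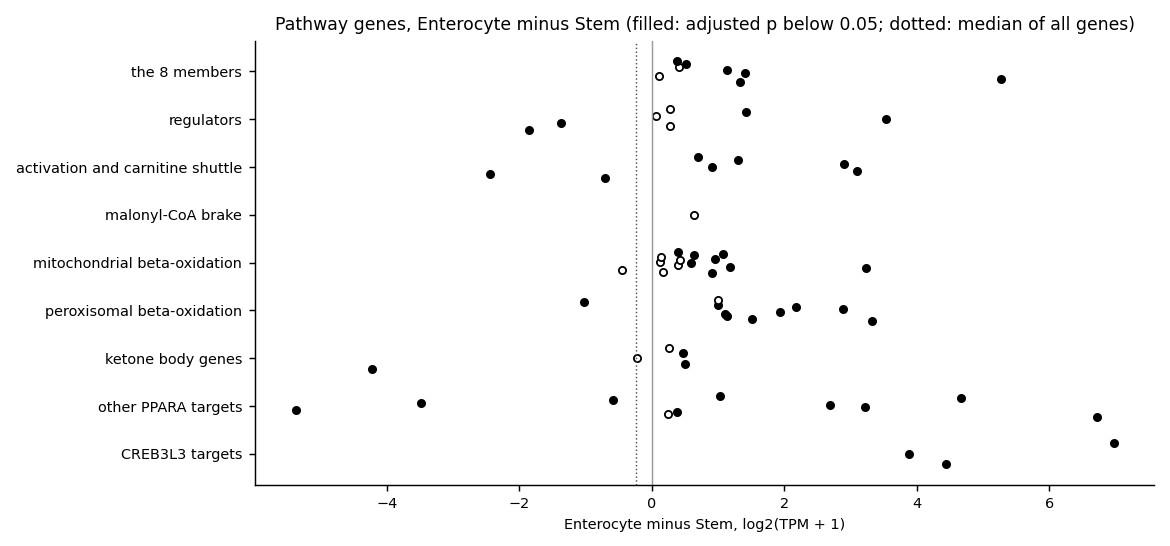
Enterocyte minus Stem difference on the log2(TPM + 1) scale (x axis) for the 8 genes and 57 further pathway genes, in rows by list, with filled points where the limma adjusted p was under 0.05 and a dotted line at the median of all genes (-0.24). Peroxisomal and CREB3L3 target genes lie mostly to the right, and Acot1 and Hilpda lie far to the left.

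The genotype comparison asks whether loss of Atg16l2 goes with a change in these transcripts. None of the 8 genes was called by limma between KO and WT, neither in the average of the 6 types (0% of all genes called) nor within any 1 type (0.0149% of all genes in Goblet cells and 0% in each of the other 5). At an unadjusted p under 0.05 there was 1 of 8 in the average, Creb3l3, and 1 of the 48 pairs of gene and type, Creb3l3 in Enterocyte.prog.late. With 2 animals per genotype the fit has 2 residual degrees of freedom. To these eBayes adds more from the spread of all genes, for 7.83 in all in the average. A missed threshold does not show that the genotypes are alike.

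In the average over types all 8 genes had a mean difference above 0, as did 54.9% of all genes, and in 4 of them both KO animals lay above both WT animals, a pattern found in 22% of all genes. Creb3l3 averaged 50.7 and 54.3 TPM in KO M1 and KO M2, against 31.4 and 37.03 TPM in WT M1 and WT M2, with a log2 difference of 0.67 (SE 0.25, limma adjusted p = 0.595). It was 0.75 in run 1 and 0.71 in run 2, where the animals overlapped. Its sign changed between runs 1 and 2 in Stem (-2.01 and 0.37), TA (1.54 and -0.06), Enterocyte (1.21 and -0.26) and Goblet cells (-1.29 and 2.06). It was positive in both runs in Enterocyte.prog.early (2.33 and 0.53) and Enterocyte.prog.late cells (2.72 and 1.64). Cpt2 averaged 109.2 and 104.8 TPM in KO animals, against 86.2 and 102.2 TPM in WT animals (0.26, SE 0.14, limma adjusted p = 0.684). Hadhb stood at 319.8 and 316.3 TPM in KO animals, against 249.5 and 309.4 TPM in WT animals (0.21, SE 0.15), and Cpt1a at 66.1 and 74.2 TPM in KO animals, against 64.9 and 63.8 TPM in WT animals (0.10, SE 0.15). For Acadm, Acadl, Hadha and Ppara the animals overlapped, with differences of 0.14, 0.09, 0.13 and 0.01. Acadm, Hadha and Ppara had 0.49, 0.31 and 0.17 in run 1 but -0.09, -0.04 and -0.24 in run 2. The widest 95% interval in the average was that of Creb3l3, 0.10 to 1.24, and that of Ppara ran from -0.49 to 0.52.

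**Figure D4:**
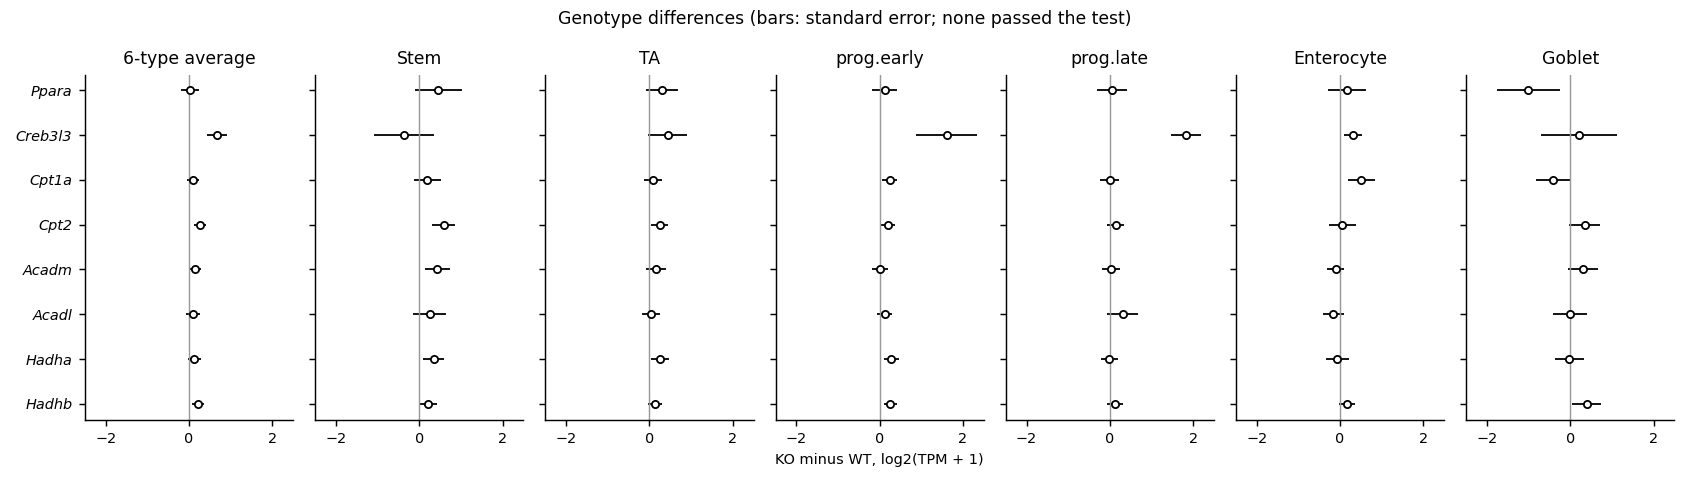
KO minus WT difference on the log2(TPM + 1) scale (x axis) for the 8 genes (y axis) in the average of 6 types and in each type, with standard errors as bars. No difference passed the limma test, and the largest, 1.83, is that of Creb3l3 in Enterocyte.prog.late cells.

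Creb3l3 in late enterocyte progenitors gave the largest genotype difference of the 8 genes. It averaged 89.3 and 89.1 TPM in Enterocyte.prog.late cells of KO M1 and KO M2, against 18.02 and 32.6 TPM in those of WT M1 and WT M2. KO values lay above WT values, as they did in 14% of all genes in this type, and the log2 difference was 1.83 (SE 0.37, limma unadjusted p = 0.00234, adjusted p = 0.891). By run, the difference was 2.72 in run 1 and 1.64 in run 2. In run 1 the means were 125.4 and 149.96 TPM in KO animals, against 8.76 and 44.3 TPM in WT animals, and in run 2 they were 35.1 and 28.3 TPM in KO animals, against 23.3 and 3.44 TPM in WT animals. The run 2 means rested on 4 and 11 KO cells and on 14 and 6 WT cells. Leaving out the highest cell of each animal, run 1 had 85.1 and 127.2 TPM in KO, against 2.98 and 33.5 TPM in WT animals. In run 2 the animals then overlapped, at 5.65 and 20.1 TPM in KO, against 16.1 and 0 TPM in WT animals. Cells above 0 TPM were 6 of 10 and 14 of 22 in KO M1 and KO M2, against 6 of 22 and 13 of 21 in WT M1 and WT M2, so that the share of WT M2 was like that of the KO animals. Sums over several marker lists were also higher in both KO animals. That of 8 enterocyte markers in these cells was 3465 and 3831 TPM in KO animals, against 3092 and 2915 TPM in WT animals, and its Spearman rho with Creb3l3 was 0.54 across the 75 cells, but 0.038 and 0.83 within KO M1 and KO M2 and 0.32 and 0.52 within WT M1 and WT M2. That of 7 Paneth markers was 663.6 and 8965 TPM in KO animals, against 70.1 and 81.2 TPM in WT animals. That of 4 markers of the proximal small intestine was 398.8 and 522 TPM in KO animals, against 311.4 and 201.96 TPM in WT animals, and that of 4 distal markers was 134.6 and 653 TPM in KO animals, against 108.6 and 60.02 TPM in WT animals. The part of these markers in the difference was not tested. The other 7 genes differed by -0.01 to 0.31 in this type. In mature Enterocyte cells Creb3l3 differed by 0.31 (SE 0.21, limma adjusted p = 0.767), and by 1.21 in run 1 and -0.26 in run 2. In Enterocyte.prog.early cells it stood at 9.27 and 4.86 TPM in KO animals, against 4.50 and 0.18 TPM in WT animals (1.61, SE 0.74, limma adjusted p = 0.853). There the highest of 42 KO M1 cells held 183.6 TPM, and 1 of 33 WT M2 cells was above 0 TPM.

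**Figure D5:**
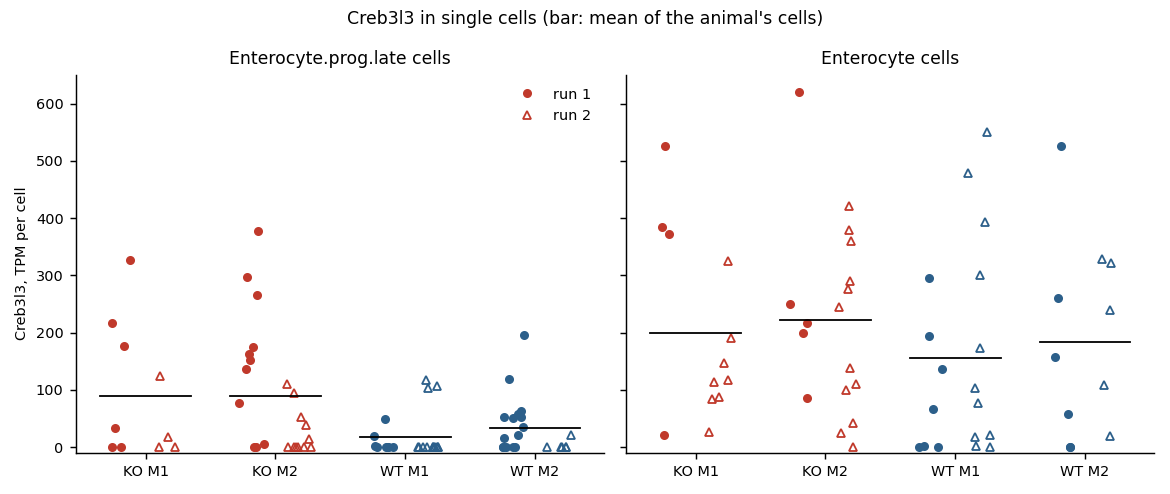
Creb3l3 in TPM (y axis) in single Enterocyte.prog.late (left panel) and Enterocyte cells (right panel) of the 4 animals (x axis), with filled circles for run 1, open triangles for run 2 and a bar at the mean of the animal. KO means of 89.3 and 89.1 TPM stand above WT means of 18.02 and 32.6 TPM in the left panel, with many cells at 0 in all 4 animals.

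Whether the Enterocyte against Stem difference itself depended on genotype was tested on the 4 differences per animal. None of the 8 genes was called (0% of all genes, 0 of the 8 at an unadjusted p under 0.05), and the changes ran from -0.54 to 0.68. Acadm differed between the types by 0.90 and 0.82 in KO M1 and KO M2, against 1.04 and 1.75 in WT M1 and WT M2, a change of -0.54 (SE 0.38, limma adjusted p = 0.874, 95% interval -1.42 to 0.33). Hadha gave 0.16 and 0.46 in KO animals, against 0.64 and 0.79 in WT animals (-0.41, SE 0.31, limma adjusted p = 0.884). In these 2 genes both KO values lay below both WT values, as they did in 17.8% of all genes.

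Of the 57 further pathway genes 0 were called between KO and WT in the average. A difference above 0 was found in 37 of them and in 54.9% of all genes. The median was 0.05 over the 57 and 0.03 over all genes. Fabp1 averaged 1296 ± 251.7 TPM in KO and 844 ± 518 TPM in WT (SD, n = 2 animals each), and in TPM the KO and WT animals overlapped. The log2 difference, taken on log2 values averaged over the types, was 0.78 (SE 0.18, limma unadjusted p = 0.00244, adjusted p = 0.499). Apoc2, which is also on the list of CREB3L3 targets, averaged 58.01 ± 47.9 TPM in KO and 143.7 ± 40.2 TPM in WT, a difference of -0.72 (SE 0.22, limma adjusted p = 0.52).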

How the data were processed

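Cells of 2 KO and 2 WT animals, as read from the codes, were profiled by SMART-Seq2. The labels do not say whether a code means the same animal in both runs, and it was treated so. They also name a 10X Genomics kit, without saying for which cells. Bowtie, TopHat and RSEM were used, per the submitters' processing notes; their versions and the genome build are not given in the sources used here. TPM values were deposited by the authors, already scaled to the same sum per cell, so depth is unknown and no count test was possible.

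All 677 cells were kept under the 9 cell types of the authors, without a doublet caller. Mean TPM per animal and type was transformed as log2(TPM + 1). The filter asked for a mean of 10 TPM or more over the 24 profiles and values above 0 TPM in at least 10% of cells, which all 8 genes passed. limma 3.58.1 (R 4.3.3; eBayes with trend) was used two-sided, with Benjamini-Hochberg adjustment over 6714 genes at 0.05. Type contrasts had the animal as a block (residual df 15), since the same animals gave all types, and KO against WT used 4 values (residual df 2). With the df that eBayes adds from the spread of all genes, p-values rested on 21.5 df for types and 7.83 for the genotype average. The code was tested on simulated data, in which the cells of every animal were drawn from cells pooled over the animals. Such data hold no spread between animals beyond that of the drawn cells. They cannot show how well the genotype test performs on these animals. Shares have exact Clopper-Pearson intervals, and a share of 0 is given with 3 cells of the total as its limit.

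The 8 genes, gene lists, markers and alternatives were chosen with earlier results of these data known. Named pathway genes are, per list, up to 3 called genes with the largest Enterocyte minus Stem difference in each direction, and for genotype the 3 of smallest unadjusted p. Some genes that this rule names are not reported here. The 3 most similar genes were taken by Pearson r, Gm and Rik symbols left out. Alternatives were pseudocounts, filters, scalings, averaging of logs, runs, cell filters, eBayes without trend, genotypes alone, each animal left out, and pairing. Scaling without Rn45s, leaving out the highest cell and a crossed pairing were added after seeing the data.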

Additional observations from a re-analysis of the deposited data

How the results depend on the processing

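Of 23 alternatives, Cpt2 and Acadm kept their call as higher in Enterocyte than in Stem cells in all, and Creb3l3 in all 22 that kept it. The 6 called genes became 3 in run 2 cells and 3 in KO animals, with 5 to 6 when an animal was left out and 5 with no replicate block. Cpt1a turned negative without the 100 highest genes (-0.14), without ribosomal protein genes (-0.071), in run 2 cells (-0.090), in WT animals (-0.049) and in 1 case of leaving out an animal (range -0.11 to 0.22), as did Acadl in run 1 cells (-0.41), Slc22a5 in run 2 cells (-0.30) and Cpt1a against Goblet in WT animals (-0.16). Against Enterocyte.prog.late the 2 calls became 1 with a pseudocount of 0.1, no filter, a filter of 50 TPM, quantile normalization, run 2, the 2 types alone or without the run 1 cells of KO M2, 0 in run 1 or in KO animals, and 0 to 2 when an animal was left out. The cause was not tested.

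Between KO and WT none of the 8 genes was called under any alternative. Ppara turned negative in the average with a pseudocount of 0.1 (-0.020), quantile normalization (-0.092), without ribosomal protein genes (-0.023), in run 2 (-0.24), without the run 1 cells of KO M2 (-0.035) and when an animal was left out (-0.085 to 0.11); Acadm did in run 2 (-0.092), Hadha in run 2 (-0.036) and when an animal was left out (-0.020 to 0.28, with -0.0077 without KO M2), and Acadl likewise (-0.11 to 0.29).

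Of all genes tested, 59.8% were called for Enterocyte against Stem, but 27.8% with no filter and 38.6% in run 2; as a number, 4013 became 1766 with a filter of 50 TPM, 2547 with log averaging and 2534 in run 2. TA against Stem gave 6.64%, but 2.38% with no filter, 14.8% with the filter of 50 TPM, 20.6% with log averaging (793 genes against 446), 4.38% without the 100 highest genes, 3.08% in run 1, 1.05% in run 2, 2.63% in WT animals, 1.41% in KO animals, 10.3% without the highest cell and 3.09 to 5.74% without an animal. Enterocyte against Enterocyte.prog.late gave 21.6%, but 6.06% with no filter, 36.6% with the filter of 50 TPM (932 genes against 1453, and 928 with log averaging), 12.7% in run 1, 3.92% in run 2, 12.9% for the 2 types alone, 2.64% in KO animals and 12.5 to 19.4% without an animal. Enterocyte against Goblet gave 52.4%, but 22.4% with no filter; as a number, 3516 became 1679 with the filter of 50 TPM, 2163 with log averaging and 2299 in run 2. KO against WT gave 0% in the average, but 0.0493% without the 100 highest genes, 0.0762% in run 2, 0.0593% in cells with at least 5000 genes, 0.238% without Rn45s and 0 to 0.285% without an animal. Whether the replicate numbers pair KO with WT animals is not known. Over 6714 genes the difference of KO M1 and KO M2 had r = -0.13 with that of WT M1 and WT M2. This single value cannot decide it. With the replicate block 0.0298% of genes were called in the average, 0.626% for the Enterocyte against Stem change and 0.161% over the 6 types, and with crossed pairs 0.655%, 0% and 0.119%. The change gave 0 to 0.134% without an animal. Over the 6 types 0.00248% were called as reported, 0.00496% with a pseudocount of 10, 0.0523% with the filter of 50 TPM, 0.0390% with log averaging, 0.0223% with quantile normalization, 0.00934% without Rn45s, 0% with no filter, without the 100 highest genes, in either run, in cells with at least 5000 genes, without trend or without the highest cell, and 0 to 0.497% without an animal. Without read depth, low levels such as those of Ppara and Creb3l3 in Stem cells cannot be given a counting error.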
